A study of Mus musculus with 16 samples.

Results

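The fast fibre sarcomere genes described here are 9 genes that encode the contractile proteins of fast-twitch muscle fibres, namely Myh2, Myh1, Myh4, Myl1, Mylpf, Tnnt3, Tnni2, Tnnc2 and Actn3. They were chosen by symbol: every probe set of the array table annotated to 1 of these symbols alone was taken. All 9 genes were in the table, on 11 probe sets, out of 4929 genes with a single symbol and 7729 probe sets in all. Myh1 and Tnni2 each had 2 probe sets, and where 1 value per gene is given it is that of the brighter set over all arrays.

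Expression was profiled on Affymetrix arrays in whole gastrocnemius and triceps of female C57BL/6 mice aged 7 weeks, an age that the labels call presymptomatic. The SOD1G93A mice carried a human SOD1 transgene with the mutation in that name, which causes familial amyotrophic lateral sclerosis, and the NTg mice were non-transgenic. There were 4 mice of each genotype, and each mouse gave both muscles, so that 16 arrays fell into 4 groups of 4: SOD1G93A gastrocnemius, NTg gastrocnemius, SOD1G93A triceps and NTg triceps. The mice received no treatment, and the muscles were snap frozen; the promoter and copy number of the transgene were not given in the sources used here. Each sample is RNA of a whole muscle, so fewer fibres of a type and less RNA per fibre cannot be told apart.

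Skeletal muscle fibres shorten when myosin filaments pull on actin filaments within the sarcomere. Each fibre type is known by its myosin heavy chain: slow type I fibres use Myh7, and the fast types IIA, IIX and IIB use Myh2, Myh1 and Myh4, in order of rising shortening speed and falling oxidative capacity. Fast fibres also use their own light chains (Myl1 and Mylpf), their own troponins (Tnnt3, Tnni2 and Tnnc2) and the Z-disc protein alpha-actinin 3 (Actn3). In SOD1G93A mice the motor units with the fastest fibres are known to lose their nerve contacts first.

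Both muscles carried the defining markers of their tissue. Of 7 skeletal muscle markers, 6 were in the table and all 6 were above the intensity filter, and their mean ranged from 12.25 to 13.43 on the log2 signal scale over the 16 arrays. However, 3 triceps arrays stood apart by a low signal of Ckm, the muscle creatine kinase: SOD1G93A triceps replicate 2 at 12.76 and NTg triceps replicates 1 and 2 at 12.84 and 13.02, against 13.84 to 14.51 on the other 5 triceps arrays and 13.97 to 14.71 on the gastrocnemius arrays. The main results that rest on these 3 arrays are given with and without them. Ckm followed the 9 genes closely (r = 0.987 with their mean over the 16 arrays), so this is a description and not an independent check.

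The 3 fast myosin heavy chain genes are neighbours on mouse chromosome 11 (GRCm38.p6, from Myh2 at 67171027 to the end of Myh4 at 67260447), and they are shown because Myh2 behaved differently from Myh1 and Myh4 in these arrays. Their promoter windows of 250 bases up to the annotated start, taken from RefSeq, are printed 5′ to 3′, with the longest run that all 3 share, of 20 bases, in capitals.
Myh2 promoter, chr11:67170777-67171026 (+): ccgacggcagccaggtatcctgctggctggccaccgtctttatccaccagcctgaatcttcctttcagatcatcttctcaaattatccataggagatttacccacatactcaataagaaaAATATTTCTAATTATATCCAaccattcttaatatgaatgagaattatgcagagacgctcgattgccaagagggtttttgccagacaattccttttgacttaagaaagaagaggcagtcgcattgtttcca
Myh1 promoter, chr11:67199852-67200101 (+): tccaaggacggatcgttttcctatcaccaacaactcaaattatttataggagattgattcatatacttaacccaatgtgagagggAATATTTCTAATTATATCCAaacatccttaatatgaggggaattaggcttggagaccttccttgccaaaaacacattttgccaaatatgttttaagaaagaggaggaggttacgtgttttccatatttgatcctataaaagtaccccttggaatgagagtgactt
Myh4 promoter, chr11:67237562-67237811 (+): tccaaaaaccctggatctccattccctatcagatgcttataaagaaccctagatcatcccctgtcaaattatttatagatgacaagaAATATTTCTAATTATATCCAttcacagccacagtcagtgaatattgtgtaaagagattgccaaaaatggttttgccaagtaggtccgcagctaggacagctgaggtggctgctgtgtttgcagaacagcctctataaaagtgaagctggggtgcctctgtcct

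The shared run was found in 3 of 32851 promoter windows in the table, those of the 3 genes themselves. Counted from the gene start, it ran from -130 to -111 in Myh2, from -165 to -146 in Myh1 and from -163 to -144 in Myh4. Upstream of it, Myh1 and Myh4 each held 1 match to the MEF2 motif (starting at -211 and -182), and the Myh2 window held none; 2.92% of all windows held one on either strand. The E-box CANNTG had 2 matches in Myh4 and none in Myh2 or Myh1, against 66.2% of all windows. A CArG box was matched in Myh4 alone of the 3 (1.47% of all windows), the MCAT element CATTCC in Myh1 and Myh4 (12.6%) and the MEF3 element TCAGGTT in none of them (3.49%). These are matches of letters in the printed windows, on both strands; binding was not measured, and the motifs were searched one by one without regard to overlap. Of the 9 genes, 6 had a promoter window in the table (Myl1, Mylpf and Tnnc2 besides the 3 myosins). Myl1 lies on chromosome 1, Tnnc2 on chromosome 2, Mylpf, Tnni2 and Tnnt3 on chromosome 7 and Actn3 on chromosome 19.

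The first question was whether any of these genes differed between the gastrocnemius and the triceps. Myh2, the myosin heavy chain of the more oxidative fast fibres, was higher in the gastrocnemius than in the triceps, and it was the only 1 of the 9 genes to pass the test. Its signal was 3.28-fold higher averaged over the genotypes. The other 8 genes lay between 0.08 and 0.66 higher in the gastrocnemius on the log2 scale, none past the test. Over the whole table, 171 of 4637 tested probe sets passed (adjusted p under 0.05 in limma), 3.69%, and 2.11% passed with a higher signal in the gastrocnemius.

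The Myh2 log2 signal was 13.39, 13.44, 13.28 and 13.49 in SOD1G93A gastrocnemius and 13.53, 13.50, 13.67 and 13.69 in NTg gastrocnemius. It was 12.01, 10.63, 12.87 and 12.66 in SOD1G93A triceps and 12.06, 10.71, 11.02 and 12.33 in NTg triceps. All 8 gastrocnemius arrays were thus above all 8 triceps arrays, which held for 1.25% of tested probe sets. The gastrocnemius arrays were tightly grouped and the triceps arrays were spread over more than 2 log2 units. The difference, gastrocnemius minus triceps, was 1.71 ± 0.27 (SE; 95% interval 1.14 to 2.29; limma adjusted p = 0.000899), and with the mouse as a block the adjusted p was 0.00027.

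Within single mice, Myh2 was higher in the gastrocnemius in 8 of 8 animals, by 0.41 to 2.81 with a median of 1.43. The within-mouse values ran from 1.37 to 2.79 in NTg mice and from 0.41 to 2.81 in SOD1G93A mice. The SE given next for each genotype is that of limma, from 1 spread for all 4 groups without pairing. It does not measure the spread of the within-mouse values. In NTg mice the difference was 2.07 ± 0.39 (SE, n = 4 mice, limma adjusted p = 0.00762), where 1.23% of probe sets passed. In SOD1G93A mice it was 1.36 ± 0.39 (SE, n = 4 mice) and did not pass (limma adjusted p = 0.162, and 0.0751 with the mouse as a block), where 1.04% passed. The difference between these differences was -0.71 (95% interval -1.87 to 0.45; limma adjusted p = 0.999), so the muscle difference of Myh2 was not shown to depend on genotype. That value was -1.18 without SOD1G93A triceps replicate 2, -0.44 without SOD1G93A triceps replicate 3, -1.04 without the 3 arrays with low Ckm, -0.03 in mice numbered 1 and 2 and -1.39 in mice numbered 3 and 4, and it passed in none of these. When limma weighted the arrays by their estimated variability, the SOD1G93A difference of 1.21 passed (adjusted p = 0.0458), and without SOD1G93A triceps replicate 2 it was 0.89 (adjusted p = 0.405).

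**Figure D1:**
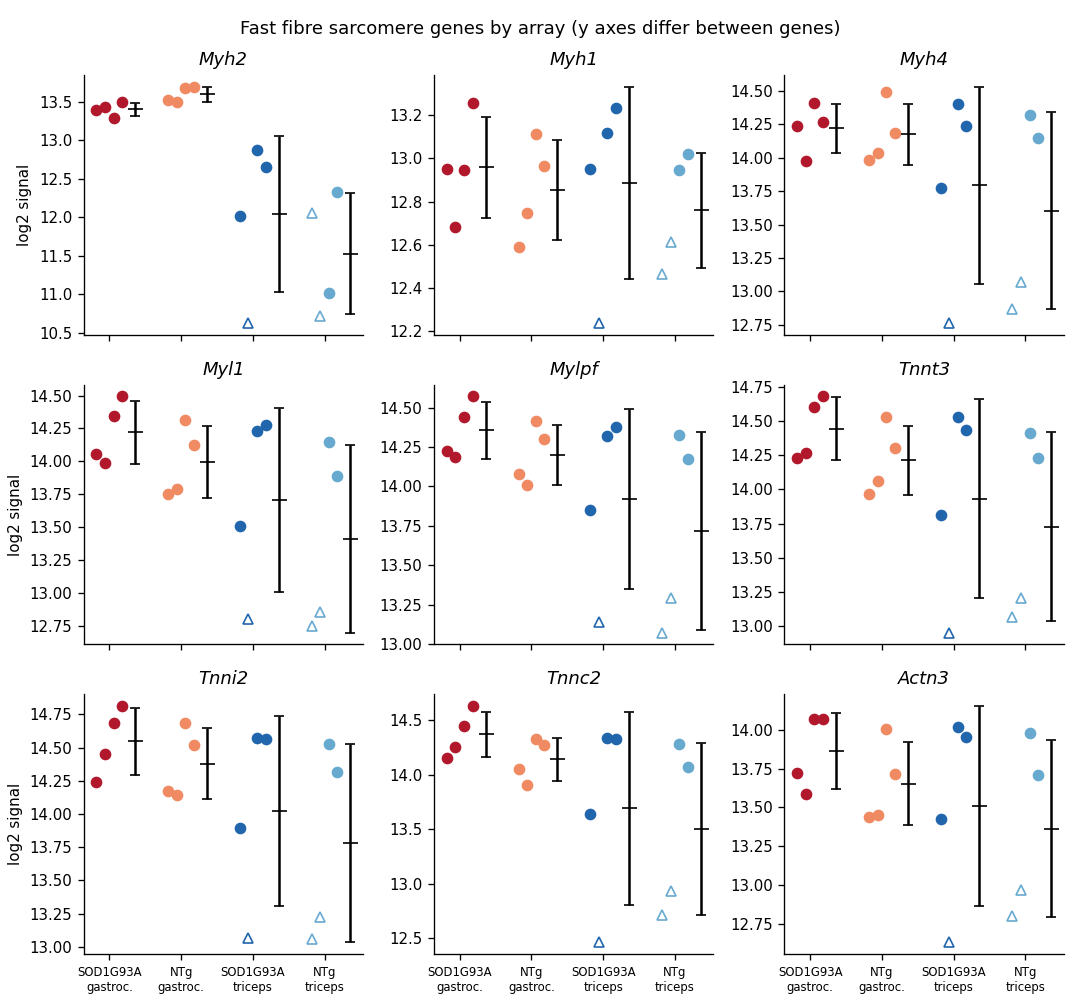
The log2 signal of each of the 9 genes on each array, in panels by gene with the 4 groups along the x axis; points are arrays, triangles are the 3 triceps arrays with low Ckm, and bars are the mean ± SD of 4 arrays. For Myh2 the 8 gastrocnemius arrays, at 13.28 to 13.69, lie above every triceps array, at 10.63 to 12.87, while the other genes overlap.

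The other 2 fast heavy chains did not share the pattern. Myh4, the heavy chain of the fastest IIB fibres, was at 14.23, 13.97, 14.41 and 14.27 in SOD1G93A gastrocnemius and at 13.98, 14.04, 14.49 and 14.19 in NTg gastrocnemius. In the triceps it was at 13.77, 12.77, 14.40 and 14.24 in SOD1G93A mice and at 12.87, 13.07, 14.32 and 14.14 in NTg mice. The muscles overlapped: the 3 lowest arrays were the triceps arrays with low Ckm and the other triceps arrays lay at 13.77 to 14.40. The difference was 0.50 ± 0.24 (SE, limma adjusted p = 0.229, and 0.138 with the mouse as a block).

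Myh1, the heavy chain of IIX fibres, was at 12.95, 12.68, 12.95 and 13.25 in SOD1G93A gastrocnemius and at 12.59, 12.75, 13.11 and 12.97 in NTg gastrocnemius. It was at 12.95, 12.24, 13.12 and 13.23 in SOD1G93A triceps and at 12.46, 12.61, 12.94 and 13.02 in NTg triceps. The 2 muscles overlapped widely, and 5 of 8 mice had the higher value in the gastrocnemius. The difference was 0.08 (95% interval -0.22 to 0.39, limma adjusted p = 0.765, and 0.699 with the mouse as a block). The second probe set of Myh1 gave 0.18 (limma adjusted p = 0.592, and 0.494 with the mouse as a block). After quantile normalization the difference of the brighter probe set was -0.30 and passed in the other direction (limma adjusted p = 0.0456). That step moves genes of like rank on an array by a like amount, so the value is relative to other bright genes. The 3 heavy chains are close paralogs and 1 Myh1 probe set is of the class that can share probes with related transcripts, so the separation of their signals is uncertain.

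Among the light chains and troponins the values moved together, and the groups overlapped for each gene. Tnnc2, the calcium-binding troponin subunit, was at 14.15, 14.26, 14.44 and 14.63 in SOD1G93A gastrocnemius and at 14.06, 13.90, 14.33 and 14.27 in NTg gastrocnemius. It was at 13.64, 12.46, 14.34 and 14.32 in SOD1G93A triceps and at 12.71, 12.93, 14.28 and 14.08 in NTg triceps. Its difference of 0.66 (95% interval 0.10 to 1.22) was the largest of the 8 genes other than Myh2. It did not pass (limma adjusted p = 0.162, and 0.0876 with the mouse as a block). The interval excludes 0 only before adjustment over the table.

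Tnni2, the inhibitory troponin subunit, ranged from 14.14 to 14.81 in the gastrocnemius and from 13.06 to 14.57 in the triceps, a difference of 0.56, with 0.50 on its second probe set. Tnnt3, the subunit that binds tropomyosin, ranged from 13.97 to 14.68 in the gastrocnemius and from 12.95 to 14.53 in the triceps, a difference of 0.50. The essential light chain Myl1 ranged from 13.75 to 14.49 in the gastrocnemius and from 12.75 to 14.28 in the triceps, a difference of 0.55. The regulatory light chain Mylpf, which is phosphorylated to tune force, differed by 0.46, with 14.01 to 14.57 in the gastrocnemius and 13.07 to 14.38 in the triceps. Actn3, which cross-links actin at the Z-disc of fast fibres, differed by 0.32, with 13.44 to 14.07 in the gastrocnemius and 12.63 to 14.02 in the triceps. None passed, with limma adjusted p between 0.185 and 0.365, and between 0.0959 and 0.249 with the mouse as a block. Each was higher in the gastrocnemius in 8 of 8 mice, as were Tnnc2 and Myh4. That pattern held for 5.93% of all tested probe sets. The lowest difference in a mouse was near 0, from 0.0045 for Myh4 and 0.011 for Actn3 to 0.11 for Myl1. Because these genes moved together, their counts are not separate observations.

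**Figure D2:**
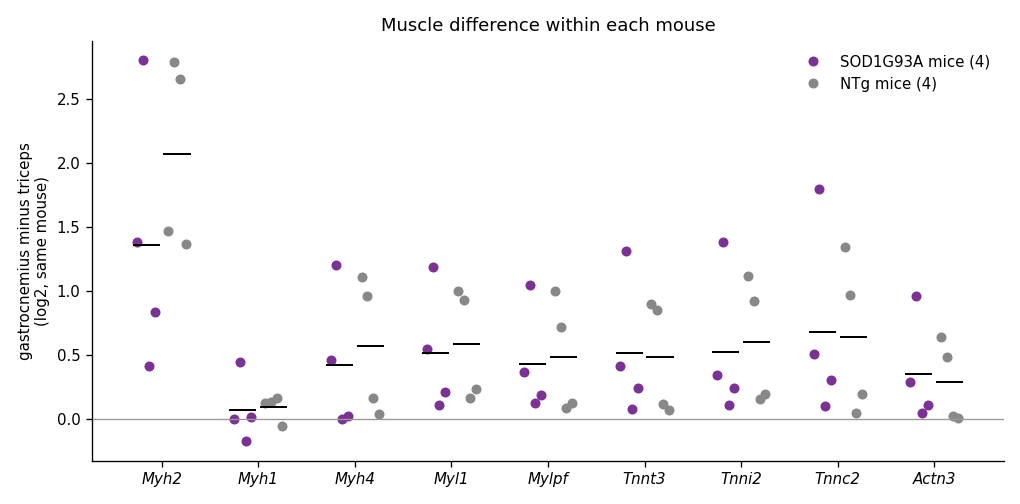
Gastrocnemius minus triceps log2 signal within each mouse for the 9 genes, with SOD1G93A mice left of NTg mice; points are mice and lines are the means of 4. Myh2 runs from 0.41 to 2.81 and is above 0 in all 8 mice, and Myh1 is above 0 in 5 of 8.

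Over the 9 genes the median muscle difference was 0.50, against 0.00 over all tested probe sets, and 9 of 9 lay above 0, against 49% of the table. This median rested on the 3 triceps arrays with low Ckm. Those arrays were the 3 lowest triceps arrays for 10 of the 11 probe sets, all but that of Myh2, against 12% of all tested probe sets. Ckm itself followed the mean of the 9 genes (r = 0.987). Arrays chosen for low Ckm were therefore likely to be low in these genes, and leaving them out does not test the difference independently. Without the 3 arrays the median was 0.06, and it was -0.01 when the arrays were quantile normalized instead. Quantile normalization gives every array the same set of values. For genes near the top of the range it removes much of a shared shift by construction, so that value does not test the difference either. Myh2 kept a difference of 1.41 without them (limma adjusted p = 8.5e-05) and of 1.49 after quantile normalization (limma adjusted p = 0.00261). What set the 3 arrays apart was not tested.

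The spread within groups was wider in the triceps, and much of that lay in the 3 arrays with low Ckm. The median SD of the 9 genes was 0.231 in SOD1G93A gastrocnemius and 0.232 in NTg gastrocnemius, near the medians of all tested probe sets in those groups, 0.224 and 0.196. It was 0.716 in SOD1G93A triceps and 0.711 in NTg triceps, where all tested probe sets had medians of 0.240 and 0.316. Without the 3 arrays it was 0.390 over 3 SOD1G93A triceps arrays and 0.145 over 2 NTg triceps arrays, with medians of 0.193 and 0.153 over all tested probe sets. Because Ckm followed these genes, leaving out the arrays low in it was likely to narrow their spread.

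A second grouping ran through the mice by their number in the labels. For 7 of the 9 genes, mice numbered 1 and 2 lay below mice numbered 3 and 4 in all 4 groups; Myh2 and the brighter Myh1 probe set were the exceptions. This held for 123 of 4637 tested probe sets, 2.65%. The labels name no batch. Within mice 1 and 2 the median muscle difference of the 9 genes was 0.92, and within mice 3 and 4 it was 0.13. Myh2 passed in both sets, with 2.11 in mice 1 and 2 (limma adjusted p = 0.016) and 1.32 in mice 3 and 4 (limma adjusted p = 0.00243). In mice 1 and 2 alone, Myh4, Myl1, Mylpf, Tnnt3, Tnni2 and Tnnc2 passed as well, with 0.78 to 1.16. All 3 arrays with low Ckm belong to those mice. Over the table, 364 probe sets passed in mice 1 and 2 and 62 in mice 3 and 4, against 171 with all arrays. With the set of mice as a term over all arrays, Myl1, Mylpf, Tnnt3, Tnni2 and Tnnc2 passed at their unchanged differences (limma adjusted p = 0.0153 to 0.031). In all, 436 probe sets passed. The split was chosen after the data were seen, and these genes follow it in all 4 groups. The term takes out that part of their spread, so these passes do not test the difference independently.

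**Figure D3:**
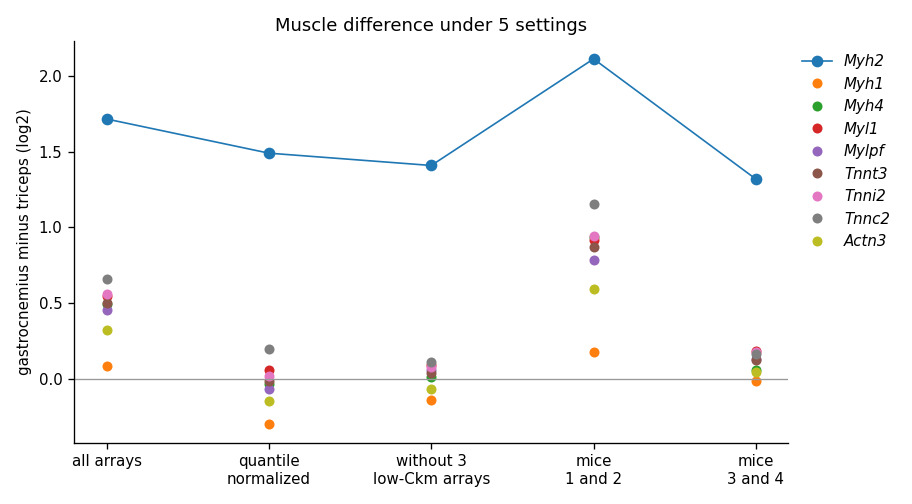
Gastrocnemius minus triceps log2 difference of the 9 genes over all arrays, after quantile normalization, without the 3 triceps arrays with low Ckm, and within mice numbered 1 and 2 or 3 and 4. Myh2 stays between 1.32 and 2.11, while the median of the 9 genes moves between -0.01 and 0.92.

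To set Myh2 against the other genes within each array, the mean log2 signal of the other 8 was subtracted from it, a step chosen after its values were seen and given as a description. That relative value was 1.26 ± 0.765 higher in the gastrocnemius (SD, n = 8 mice), positive in 8 of 8 mice, and 1.17 ± 0.839 (SD, n = 5) in the 5 mice without a low-Ckm array, positive in 5 of 5. It was 0.92 in SOD1G93A mice and 1.60 in NTg mice, a difference that did not pass (exact permutation test of 4 mice against 4, two-sided, p = 0.257, smallest possible 0.0286). After subtracting group means, the 28 pairs among the other 8 genes correlated at r = 0.881 to 0.995 over the 16 arrays, and Myh2 correlated with them at 0.534 to 0.621. Over the 13 arrays without the 3 low in Ckm, the ranges were 0.676 to 0.991 and 0.177 to 0.331. These arrays share their scaling, so the correlations only describe how the signals moved together.

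The genotype comparison asked whether the presymptomatic SOD1G93A muscles already differed in these genes. None of the 9 genes passed in either muscle or averaged over both, and neither did any other of the 4637 probe sets (0%; at an unadjusted p under 0.05 there were 103 in the gastrocnemius, 118 in the triceps and 85 averaged, 2.22%, 2.54% and 1.83%). The difference of the genotype differences likewise gave 0 calls, with 86 probe sets (1.85%) at an unadjusted p under 0.05. In the gastrocnemius the differences, SOD1G93A minus NTg, lay between -0.20 and 0.23, with a median of 0.17 and 8 of 9 genes above 0, against a median of -0.01 and 47.1% above 0 over the table. In the triceps they lay between 0.13 and 0.51, with a median of 0.20 and 9 of 9 above 0, against 0.02 and 54.4%. All 9 limma adjusted p-values were 0.999 in the gastrocnemius and 0.994 in the triceps.

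These small positive medians moved in size with single arrays, though the gastrocnemius median stayed above 0, and both depended on the scaling. After quantile normalization they were -0.01 in the gastrocnemius and -0.02 in the triceps. That step by construction removes much of a shift shared by such bright genes. The gastrocnemius median was 0.085 without SOD1G93A gastrocnemius replicate 4 and 0.268 without NTg gastrocnemius replicate 3. Without the 3 triceps arrays with low Ckm, of which 1 is SOD1G93A and 2 are NTg, the triceps median was -0.06. Leaving out SOD1G93A triceps replicate 2 alone gave 0.54, and leaving out NTg triceps replicate 1 alone gave -0.01.

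Myh2 was the 1 gene below 0 in the gastrocnemius. Its 4 SOD1G93A gastrocnemius arrays, at 13.28 to 13.49, lay below its 4 NTg gastrocnemius arrays, at 13.50 to 13.69, without overlap, which held for 1.32% of tested probe sets in that direction. The difference of -0.20 (95% interval -1.02 to 0.62; limma adjusted p = 0.999) did not pass; the fit uses 1 spread for all 4 groups, and the SD of Myh2 was 0.0887 and 0.0983 in the gastrocnemius groups against 1.01 and 0.784 in SOD1G93A and NTg triceps. In the triceps Myh2 was 0.51 higher in SOD1G93A mice (95% interval -0.30 to 1.33; limma adjusted p = 0.994), with overlapping arrays. That value was -0.06 in mice 1 and 2 and 1.09 in mice 3 and 4, and it was 0.24 without SOD1G93A triceps replicate 3 and 0.98 without SOD1G93A triceps replicate 2.

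**Figure D4:**
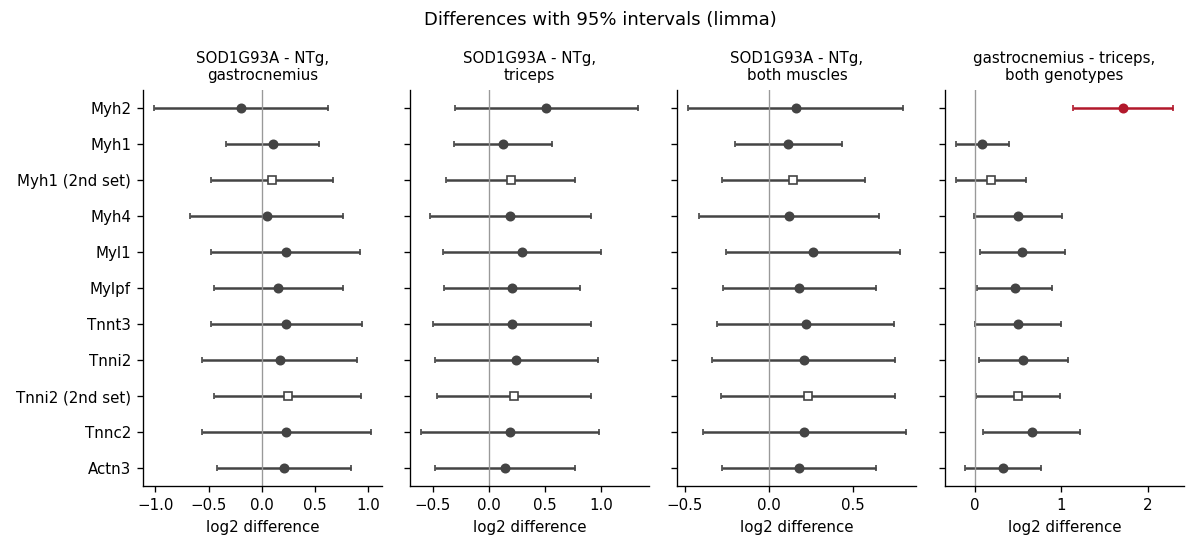
Log2 differences with 95% intervals from limma for the 11 probe sets, in panels for SOD1G93A minus NTg in gastrocnemius, in triceps and averaged, and for gastrocnemius minus triceps; open squares are second probe sets and red marks a difference that passed. Every genotype interval spans 0, and Myh2 between muscles, at 1.71, is the only one in red.

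Other genes of the fast programme did not pass in any comparison. Of 15 further fast fibre genes mostly for calcium handling and glycolysis, 13 were tested and 0 passed between the muscles, with 13 of 13 above 0 and a median of 0.36. Ckm had 0.60 (limma adjusted p = 0.194), Eno3, the muscle enolase, had 0.47 (limma adjusted p = 0.189) and Pgam2, the muscle phosphoglycerate mutase, had 0.32 (limma adjusted p = 0.164). Without the 3 arrays with low Ckm, the median was -0.0065 and 5 of 13 lay above 0. Ckm is 1 of these 13, so the arrays left out were chosen by a gene of the list itself. Between genotypes their medians were 0.17 in both muscles, and -0.089 in the triceps without the 3 arrays.

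Slow fibre genes were higher in the gastrocnemius. All 14 tested of 17 passed, against 2.11% of the table in that direction, and all 14 passed without the 3 arrays. For 6 of the 14 the triceps mean lay below the filter level of 6.75, where the size of a difference depends on the array's floor. Those 6 cleared the intensity filter only through the gastrocnemius, so the direction of their difference was fixed by the filter. The other 8 differed by 0.94 to 4.73, with a median of 1.86. Examples among these are the Z-disc protein Myoz2 at 3.24 (limma adjusted p = 1.95e-08) and the calcium pump Atp2a2 at 4.02 (limma adjusted p = 1.05e-07). Between genotypes none passed.

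Of 17 tested sarcomere genes used by all fibre types, 2 passed as higher in the gastrocnemius, against 2.11% of the table in that direction. The median was 0.13. The 2 were the thin filament protein Lmod2 at 1.18 (limma adjusted p = 0.000197) and the actin-severing Cfl2 at 0.55 (limma adjusted p = 0.0203). Both passed without the 3 arrays too, at 1.23 and 0.39. Of 9 tested regulators of fibre type, 1 passed as lower in the gastrocnemius, Tbx15 at -0.66 (limma adjusted p = 0.00331), a transcription factor of glycolytic fibres, where 1.57% of the table passed in that direction. Without the 3 arrays it was -0.53 (limma adjusted p = 0.0399). Sox6, a repressor of slow genes, was at -0.45 (limma adjusted p = 0.079). Of the developmental sarcomere genes, which return in regenerating fibres, 2 were tested and 0 passed, and of 5 denervation genes in the table none was above the intensity filter.

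A few markers of other cells were higher in the gastrocnemius as well, where 2.11% of the table passed in that direction. Both tested Schwann cell markers were higher in the gastrocnemius, Mbp by 2.34 (limma adjusted p = 1.35e-05) and Pmp22 by 1.26 (limma adjusted p = 1.05e-05), and 5 other listed markers were not tested. Their mean ranged from 7.90 to 9.54 in SOD1G93A gastrocnemius and from 8.98 to 9.34 in NTg gastrocnemius, against 7.16 to 7.57 in SOD1G93A triceps and 6.83 to 7.59 in NTg triceps. Of 8 tested fibroblast and tendon markers 2 passed, Fmod at 0.66 and Col1a1 at 1.31, and neither passed without the 3 arrays (0.50 and 0.66), where Mbp and Pmp22 did (2.59 and 1.29). None of the 2 adipocyte, 2 endothelial, 3 immune and 1 smooth muscle markers tested passed. The part of these cells in the Myh2 difference was not tested.

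The genes whose profile over the 16 arrays was most like the mean of the 9 were Slc25a4, the adenine nucleotide carrier of muscle mitochondria (r = 0.989), Acta1, the skeletal actin (0.987), Ckm (0.987), Atp2a1, the fast calcium pump (0.981), and Pvalb, the calcium buffer of fast fibres (0.978), among 3025 genes ranked. The same 5 genes led after group means were subtracted, and without the 3 arrays low in Ckm their r was 0.863 to 0.929. The lowest were Taldo1 at -0.968, Ciao2a at -0.965 and Snrpe at -0.934. For Myh2 alone, a ranking made after its values were seen, the nearest were Fhl1 (0.971), Ldhb (0.954), Actn2 (0.942), Csrp3 (0.928) and Mb (0.928). Of these, Fhl1, Actn2, Csrp3 and Mb stand in the slow fibre list. Without the 3 arrays these 5 were at 0.891 to 0.940. These values include the difference between the muscles. After group means were subtracted, the nearest were Fhl1 (0.916), Actn2 (0.905), Ldhb (0.883), Mrpl41 (0.830) and Coq8a (0.814), without Csrp3 and Mb.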

How the data were processed

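Total RNA from 16 muscles was hybridised to Affymetrix arrays, 1 array per muscle. The deposited table holds log2 signals of 7729 probe sets made by the authors with MAS5, per the submitters' processing notes; how the arrays were scaled and filtered is not given here, and the log base was read from the values (-0.77 to 14.81; array medians 7.10 to 7.26). Probe sets were named from the platform annotation: 7053 had 1 symbol, 330 several and 346 none. Tests covered the 4637 probe sets brighter on average than the 40th percentile, log2 6.75, among them all 11 of the 9 genes.

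The deposited values were not rescaled. Group means were fitted in limma 3.58.1 (R 4.3.3) with a trended eBayes, and Benjamini-Hochberg adjustment ran over all tested probe sets, called under 0.05. The genotype difference averaged over muscles had the mouse as a random block. The design text gives 4 mice per genotype for both muscles, and the gastrocnemius and triceps arrays of 1 genotype and number, read as 1 mouse, deviated together (r 0.136 to 0.388), so blocked values are given for the muscle comparison, where calls went to 331 with the mouse block, against 171 without it. The fit was tested on simulated data with independent arrays and 1 spread per probe set for all groups. That test therefore does not cover the wider triceps spread of these genes or arrays that share a mouse. The permutation test used SciPy 1.17.1. Every probe set of the 9 genes is reported; of each other list up to 3 genes of smallest p were open to naming, with the 5 most and 3 least similar profiles. The members, lists and tests were chosen with earlier results of these data known. The number of arrays limits the precision. Alternatives changed the scaling, the filter, the variance model, the array weights, the block and the arrays included. Sequences and positions are from RefSeq (GRCm38.p6).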

Additional observations from a re-analysis of the deposited data

How the results depend on the processing

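In limma, the muscle difference of Myh2 averaged over genotypes kept its direction and passed under every alternative run, from 1.32 to 2.11, and between 1.48 and 1.85 when each array was left out in turn. In NTg mice it passed under all but 1: within mice numbered 1 and 2 it was 2.13 (limma adjusted p = 0.102). In SOD1G93A mice it passed with array weights only (1.21).

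The count of called probe sets for the averaged muscle difference, 171, was 103 without the 3 triceps arrays with low Ckm, 331 with the replicate block by mouse, 436 with the replicate set as a term, 364 in mice 1 and 2, 62 in mice 3 and 4, and 99 (without SOD1G93A triceps replicate 2) to 272 (without NTg triceps replicate 3) with single arrays left out. In SOD1G93A mice 48 became 24 in mice 1 and 2, 14 in mice 3 and 4, and 23 to 58 with single arrays left out. In NTg mice 57 became 90 with the replicate set as a term, 27 in mice 1 and 2, 34 in mice 3 and 4, and 37 to 66. Genotype comparisons with 0 calls gave 1 in triceps and 2 averaged in mice 3 and 4.

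The median muscle difference of the 9 genes, 0.50, was -0.011 after quantile normalization. It was -0.030 in SOD1G93A and 0.017 in NTg mice, against 0.51 and 0.57 as deposited, and -0.052 in NTg mice without the 3 arrays; single arrays moved the 3 medians over 0.34 to 0.62, 0.19 to 0.69 and 0.33 to 0.81.

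Quantile normalization turned muscle differences of Myh1 to -0.30, Myh4 to -0.030, Mylpf to -0.063, Tnnt3 to -0.011 and Actn3 to -0.14. Myh1 was -0.026 with array weights, -0.14 without the 3 arrays, -0.0098 in mice 3 and 4, and -0.025 to 0.14 with single arrays left out; Actn3 was -0.066 without the 3 arrays. With the replicate set as a term, chosen after the data were seen, Myl1, Mylpf, Tnnt3, Tnni2 and Tnnc2 passed (limma adjusted p 0.0153 to 0.031).

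No genotype difference below passed. In the gastrocnemius, quantile normalization gave -0.14 for Myh4, -0.013 for Myl1, -0.059 for Mylpf and -0.028 for Tnni2, and Myh4 was -0.0031 in mice 3 and 4. In the triceps it gave -0.083 for Myh1, -0.052 for Myh4, -0.016 for Mylpf, -0.020 for Tnnt3 and -0.095 for Actn3. Without the 3 arrays the triceps gave -0.095 for Myh4, -0.012 for Myl1, -0.069 for Mylpf, -0.062 for Tnnt3, -0.076 for Tnni2, -0.078 for Tnnc2 and -0.042 for Actn3. Averaged, quantile normalization gave -0.029 for Myh1, -0.098 for Myh4, -0.038 for Mylpf, -0.0086 for Tnnt3, -0.0073 for Tnni2 and -0.014 for Actn3, and Myh4 was -0.014 without the 3 arrays. Myh2 in mice 1 and 2 was -0.064 in triceps and -0.082 averaged. With single arrays left out, the gastrocnemius ranged from -0.019 to 0.15 for Myh4, and the triceps from -0.052 to 0.54 for Myh4, -0.010 to 0.47 for Mylpf, -0.017 to 0.53 for Tnnt3, -0.072 to 0.60 for Tnnc2 and -0.042 to 0.44 for Actn3. The cause of these turns was not tested.

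Across genotypes the replicate numbers name different mice, and same-numbered arrays were not best matched (0 of 4 in gastrocnemius and 1 of 4 in triceps). The fit with the replicate block left Myh2 at 0.51 in triceps (limma adjusted p = 0.919) and called 0 probe sets. The replicate set term and the splits by mouse number were added after the data were seen. Probe sets of different genes cannot be compared in level, and these signals are near the top of the array's range, 14.81 at most; a ceiling was not tested.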
